A study of Homo sapiens with 14 samples.

Results

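Ephrins and their Eph receptors were followed in HEK293T cells, a human embryonic kidney line, and in a SETD2 knockout of the same line. The SETD2 enzyme trimethylates lysine 36 of histone H3 along transcribed genes. The set holds 8 genes: the ligands EFNB2, EFNB1 and EFNB3 and the receptors EPHB4, EPHB2, EPHB3, EPHA2 and EPHA7. Each gene was fixed by a position on the hg19 genome and by an anchor transcript there, and all rows of the deposited tables whose locus contained that position were taken. This gave 273 of the 204092 transcripts in the series. The deposited locus was 0.971 to 1.04 times as long as the RefSeq gene of that name for 6 of the 8 genes, and much longer for EPHB4 and EPHB3. The set was chosen by the FPKM rise of EFNB2 between the groups, which the authors' test called, so that difference is a description and not a test.

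The groups were wild type HEK293T (3 RNA libraries) and HEK293T with SETD2 knockout (3 RNA libraries), grown alike and with no further treatment in the labels. How the knockout was made, and whether it was 1 clone, the labels do not say. Nothing in the labels says that libraries came from separate cultures. The deposited values are FPKM (fragments per kilobase of transcript, scaled to mapped fragments), with 1 value per transcript and group, so no value of a single library and no library depth can be given. They come in a table of the authors' tests (the test table) and in a table of levels with an interval around each (the tracking table). Knockout values differ between the tables, and for the 8 anchors the tracking value was 0.885 to 1.17 times the test value in the knockout cells and 0.976 to 0.977 times that value for wild type cells. Values below are from the test table unless an interval or the tracking table is named, and each is the authors' deposited group value.

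Eph receptors are receptor tyrosine kinases, and ephrins are their ligands, held in the membrane of the neighbouring cell, so that signalling needs contact between cells. Ephrin-B proteins span the membrane and can signal back into the cell that carries them, while the ephrin-A proteins are tethered by a lipid anchor. Contact usually leads cells to pull apart or to sort from each other, and in the embryo the pair of ephrin-B2 and EphB4 separates arteries from veins. Both ligands and receptors are also active in kidney development and in epithelial tumours.

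RefSeq promoters (GRCh38.p14, first listed start of a gene) were found for 7 of the 8 genes, and the stretches of EFNB2 and EFNB1 are shown because of the 3 ephrin-B genes measured EFNB2 was called as changed and EFNB1 had the highest wild type level. Each covers the 250 bases before the transcription start, 5′ to 3′ on the strand of the gene, with every CG pair in capitals. The EFNB2 stretch lies at chr13:106535663-106535912 on the minus strand and that of EFNB1 at chrX:68828771-68829020 on the plus strand, both on GRCh38.p14.
EFNB2: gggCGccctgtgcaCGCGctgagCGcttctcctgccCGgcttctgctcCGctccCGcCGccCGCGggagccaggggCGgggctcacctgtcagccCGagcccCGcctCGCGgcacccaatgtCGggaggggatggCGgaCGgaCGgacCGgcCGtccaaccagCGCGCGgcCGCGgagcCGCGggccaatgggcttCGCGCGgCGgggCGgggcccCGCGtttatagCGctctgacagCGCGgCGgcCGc
EFNB1: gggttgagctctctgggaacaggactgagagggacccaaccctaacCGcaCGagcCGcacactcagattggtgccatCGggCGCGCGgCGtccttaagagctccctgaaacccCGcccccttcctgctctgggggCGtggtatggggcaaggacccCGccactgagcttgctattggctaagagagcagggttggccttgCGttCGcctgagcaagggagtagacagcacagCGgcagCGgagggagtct
The EFNB2 stretch held 40 CG pairs and was 78.4% G or C, against 15 pairs and 63.6% for EFNB1. The median over 27303 RefSeq promoters was 11 pairs, and 2.06% held at least as many as EFNB2. Among the receptors EPHB2 had 42 CG pairs, EPHB4 29, EPHB3 21, EPHA7 19 and EPHA2 15, so a dense stretch was not particular to the gene that changed. The GC box GGGCGG, counted on both strands, occurred 3 times in the EFNB2 stretch and once or more in each of the 7, while 42.3% of all promoters held it. The TATA motif TATAAA, on either strand, was present in EFNB2 and in none of the other 6, against 11.1% of all promoters. These are matches of letters in a fixed window, and no binding or chromatin was measured there.

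EFNB2, which encodes ephrin-B2, was the only member called as changed. Its single transcript, ENST00000245323 at chr13:107142079-107187462 (hg19), stood at 6.95 FPKM in the wild type and 40.7 FPKM in the knockout, a 5.85-fold higher value with q = 0.0220 in the authors' deposited table. The tracking table lists 6.79 FPKM for the wild type (interval 4.32 to 9.26) and 37.9 FPKM for the knockout (interval 25.9 to 49.9). The intervals lay far apart, and the knockout's lower bound was above the wild type's upper bound. RNA of whole cultures cannot tell more cells expressing EFNB2 from more RNA per cell. Of the 189 member transcripts that the authors tested, this 1 passed their q-value of 0.05, against 0.255% of all 85852 tested transcripts in either direction with 0.0629% called higher and 0.192% called lower in the knockout. Since the set was chosen with this result known, nothing is read from that count. RefSeq places an uncharacterised locus, LOC124903247, over part of EFNB2, and the library kit in the labels is not stated to keep the strand, so reads of the overlap cannot be told apart.

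**Figure D1:**
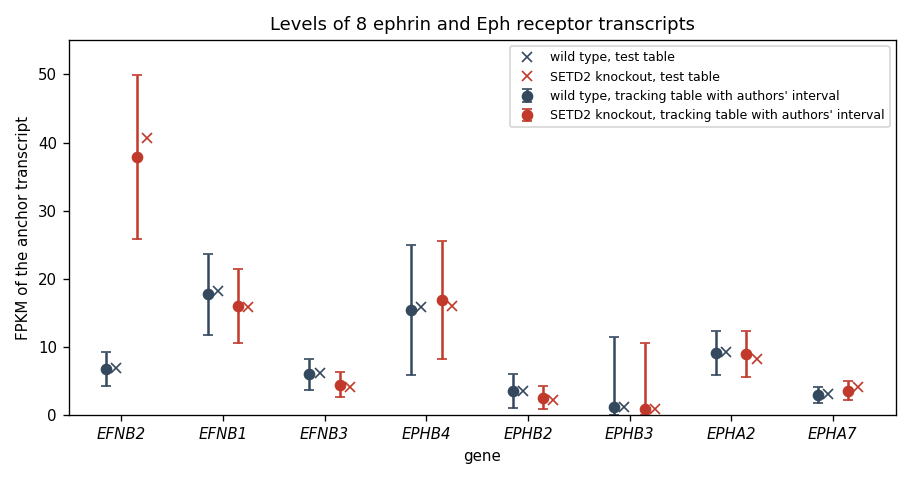
FPKM of the anchor transcript of each of the 8 genes (x axis) in wild type (dark) and SETD2 knockout (red) cells. Circles and bars are the tracking-table value and the authors' interval, crosses the test-table value. EFNB2 is at 6.79 against 37.9 FPKM with intervals apart, and the intervals of the other 7 overlap.

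The other ephrin-B ligands had slightly lower, not higher, values in the knockout. EFNB1, the X-linked ephrin that takes part in shaping the skull and face, stood at 18.2 FPKM in the wild type and 15.9 FPKM in the knockout (ENST00000204961, chrX:68048840-68061990, hg19). Its log2 fold of knockout over wild type was -0.20, with an authors' p-value of 0.341, and its intervals of 11.9 to 23.7 and 10.6 to 21.4 FPKM covered nearly the same range. EFNB3, the ephrin known from the midline of the nervous system, stood at 6.16 FPKM in the wild type and 4.12 FPKM in the knockout (ENST00000226091, chr17:7608520-7614696, hg19). Its log2 fold was -0.58 with an unadjusted p of 0.02195 and a q of 0.991, and the tracking table gave -0.41, with intervals of 3.72 to 8.31 and 2.72 to 6.34 FPKM that overlapped. Both values are therefore lower in the knockout in both tables, and neither passed the authors' test.

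Each of these 3 ligands had a locus of a single transcript, so their values do not depend on how reads are shared among isoforms. They can be set beside the 938 loci of 1 transcript and at least 5 FPKM in a group. Many of the 938 are far shorter than the ligand loci, so the sets are not alike. Those above EFNB2 are such short loci, at chr10:106028080-106028177 and chr9:140017961-140018060. The median log2 fold of the 938 loci was -0.01, and 76.5% lay within 1.5-fold. EFNB2 had the 3rd highest fold, and 0.320% of the loci were at or above it, EFNB2 included. The set was chosen by this rise, so the rank and share describe it and are no support for it. EFNB1 lay inside the bulk of the distribution and EFNB3 just at its lower edge of 1.5-fold. Over tested transcripts of any locus with at least 5 FPKM, where isoforms share reads, 59.2% lay within 1.5-fold and 2.45% were at or above the fold of EFNB2.

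**Figure D2:**
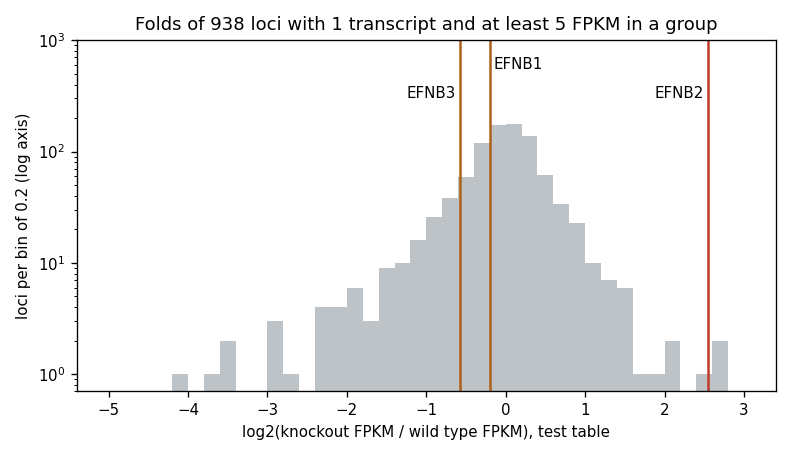
Number of loci (log axis) by log2 fold of knockout over wild type FPKM, in bins of 0.2, over the 938 loci of 1 transcript and at least 5 FPKM in a group. Vertical lines mark EFNB3 at -0.58, EFNB1 at -0.20 and EFNB2 at 2.55, where 3 loci, EFNB2 included, lie at or above EFNB2. The rise of EFNB2 chose the set.

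The make-up of the ephrin-B pool was thus different in the 2 groups. In the wild type EFNB1 made up 58.2% of the summed FPKM of the 3 ligands, EFNB2 22.2% and EFNB3 19.7%. In the knockout EFNB2 made up 67.1%, EFNB1 26.1% and EFNB3 6.80%. The sum went from 31.3 to 60.7 FPKM, and without EFNB2 it was 24.4 against 20.0 FPKM. EFNB2 over EFNB1 had a ratio of 0.382 in the wild type and 2.57 in the knockout, or 2.36 with the knockout value of the tracking table. These shares follow from the EFNB2 difference that chose the set and add no support to it.

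The receptor sums differed little between the groups. The anchors of EPHB4, EPHB2 and EPHB3 summed to 20.8 FPKM in the wild type and 19.3 FPKM in the knockout, and those of EPHA2 and EPHA7 to 12.5 and 12.4 FPKM. EFNB2 over EPHB4, its main receptor in blood vessels, had a ratio of 0.438 in the wild type and 2.54 in the knockout. The tracking table gave 2.24 for the knockout. With the EPHB4 anchor at 15.9 and 16.1 FPKM, this ratio follows from the EFNB2 difference that chose the set and adds no support to it. That anchor is 1 of 28 transcripts at the EPHB4 locus.

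**Figure D3:**
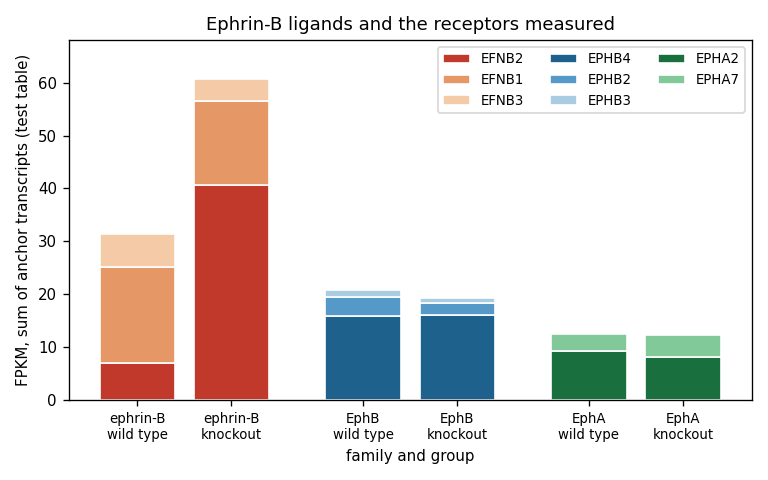
Stacked test-table FPKM of the anchor transcripts of the ephrin-B ligands, the EphB receptors and the EphA receptors (x axis) in wild type and knockout cells. The ligand bar goes from 31.3 to 60.7 FPKM through EFNB2, and the receptor bars differ by less than 2 FPKM.

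EPHB4, the receptor known from veins, was the highest receptor. Its anchor ENST00000358173 stood at 15.9 FPKM in the wild type and 16.1 FPKM in the knockout, a log2 fold of 0.02 with a p-value of 0.963, and its intervals were 5.95 to 25.0 and 8.23 to 25.6 FPKM. The difference was small beside the intervals. The deposited locus, chr7:100400187-100464631 (hg19), held 28 transcripts and was 2.58 times as long as EPHB4 in RefSeq, where the gene SLC12A9 overlaps it. The locus sum, 72.7 FPKM in the wild type and 65.3 FPKM in the knockout, may therefore hold RNA of another gene, and the files do not say which transcript belongs to which. ENST00000478459, with the largest share of the locus in the wild type (24.4%), stood at 17.8 against 12.3 FPKM with a p of 0.535. ENST00000354161 and ENST00000360620 stood at 12.3 and 12.3 FPKM in the wild type and at 9.01 and 7.05 FPKM in the knockout, with p-values of 0.327 and 0.118. ENST00000461016, at 0.902 against 5.13 FPKM, had the lower bound 0 in both groups.

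EPHB2, a receptor that positions cells along the intestinal crypt and guides axons, showed the largest difference between its anchor and its locus. ENST00000400191 stood at 3.62 FPKM in the wild type and 2.22 FPKM in the knockout, a log2 fold of -0.70 with a p of 0.0985 and overlapping intervals of 1.03 to 6.05 and 0.897 to 4.30 FPKM. The sum over all 11 transcripts at chr1:23037332-23241818 (hg19) was 7.43 FPKM in the wild type and 7.79 FPKM in the knockout, a log2 fold of 0.07. RefSeq places LOC124903874, MIR4253 and MIR4684 over part of EPHB2, so some of the 11 transcripts may belong to them. The anchor held 48.8% of the locus in the wild type and 28.5% in the knockout, while ENST00000374632 held 12.9% and 28.4%. That transcript stood at 0.959 and 2.22 FPKM with a p of 0.159. ENST00000374630 held 35.0% and 22.4%. ENST00000465676 was listed at 0 in the wild type and at 1.11 FPKM in the knockout. With the tracking table the anchor held 35.0% of the locus in the knockout, so the size of this shift depends on the table.

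EPHA2, a receptor of epithelial cells that is often raised in tumours, had an anchor at 9.35 FPKM in the wild type and 8.25 FPKM in the knockout (ENST00000358432, log2 fold -0.18, p of 0.437). The tracking table gave 9.13 and 8.99 FPKM, with intervals of 5.92 to 12.3 and 5.61 to 12.4 FPKM. The locus chr1:16450832-16483824 (hg19) held 5 transcripts and summed to 12.4 FPKM in the wild type and was 1.12 times as high in the knockout. The anchor held 75.3% of it in the wild type and 59.0% in the knockout. Of the other transcripts, ENST00000480202 stood at 0.663 and 3.47 FPKM and ENST00000462805 at 2.18 and 0.757 FPKM, with p-values of 0.460 and 0.664. RefSeq places EPHA2-AS1 over part of EPHA2, and reads of the overlap cannot be told apart.

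EPHA7, a receptor studied mostly in the developing brain, had the largest positive fold among the receptor anchors. ENST00000369303 stood at 3.11 FPKM in the wild type and 4.11 FPKM in the knockout, a log2 fold of 0.40 with a p of 0.108 and intervals of 1.83 to 4.24 and 2.25 to 5.03 FPKM. The tracking table gave 3.04 and 3.64 FPKM. The second transcript of its locus, chr6:93949738-94129265 (hg19), had tracking values of 1.07 FPKM (wild type) and 0.621 FPKM (knockout). In the test table the anchor held 74.0% of the locus in the wild type and 84.5% in the knockout.

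**Figure D4:**
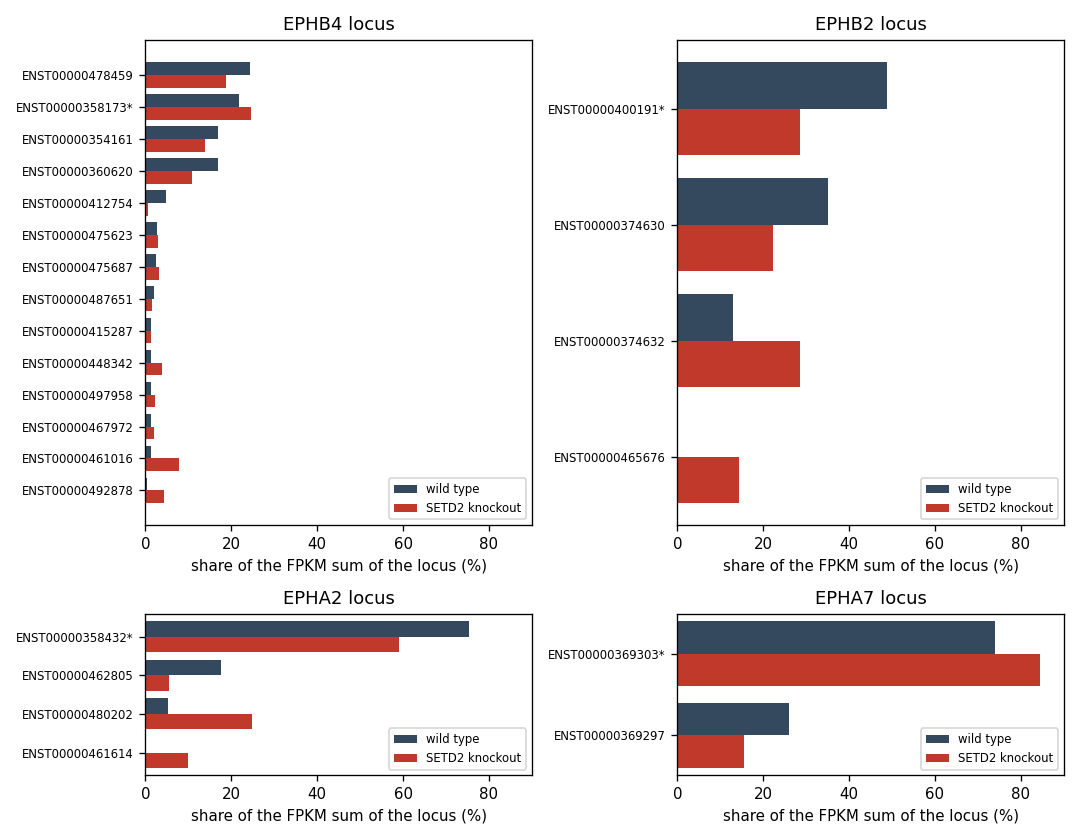
Share of the locus FPKM sum (x axis, %) of each transcript of at least 1 FPKM in a group at EPHB4, EPHB2, EPHA2 and EPHA7, in wild type (dark) and knockout (red) cells, with the anchor marked by an asterisk. The EPHB2 anchor goes from 48.8% to 28.5% and the EPHA7 anchor from 74.0% to 84.5%.

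EPHB3, a close relative of EPHB2 in the crypt, had the lowest anchor and could not be measured well. ENST00000330394 stood at 1.31 FPKM in the wild type and 1.02 FPKM in the knockout, with intervals from 0 to 11.5 and from 0 to 10.6 FPKM and a p of 0.815. The deposited locus that contains it, chr3:183851807-184402546 (hg19), joined 224 transcripts over 26.7 times the RefSeq length of EPHB3. The anchor was 0.0688% of the wild type sum of that locus, and 93 of its transcripts lay above the anchor in the wild type. The locus sum, 1900 against 1993 FPKM, is thus not a value of EPHB3. Of its 159 tested transcripts 85 were higher and 74 lower in the knockout, none passed the q-value, and 12 had an unadjusted p under 0.05, against 2.38% of all tested transcripts. Of these 12, the knockout was listed at 0 for 11 and the wild type for 1.

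Outside that locus the transcripts other than the anchors were measured with little precision. Of the 42, only 2 had an interval above 0 in both groups. Transcripts listed at 0 in a group could not have such an interval, so this count mixes absent transcripts with imprecise ones. Of the 22 transcripts of at least 1 FPKM in the knockout outside that locus, 6 had a tracking value under 0.66 times the test value, among them ENST00000461016, ENST00000480202 and ENST00000465676, and 0 of the 6 were anchors. The shifts in shares at EPHB2 and EPHA2 rest in part on these transcripts, and their part in the result was not tested.

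Levels per length order the anchors in the wild type as EFNB1, EPHB4, EPHA2, EFNB2, EFNB3, EPHB2, EPHA7 and EPHB3. In this order every gene had an interval that overlapped that of the next, so no neighbours differ beyond their interval. EFNB1 at 17.8 FPKM in the tracking table overlapped with EPHB4 and EPHA2 only, and its lower bound of 11.9 lay above the upper bound of EFNB2, EFNB3, EPHB2, EPHA7 and EPHB3. In the knockout EFNB2 took the first place, and its interval overlapped with 0 of the other 7. That place follows from the EFNB2 rise that chose the set and adds no support to it. The other genes kept their wild type order in the knockout but for EPHB4 with EFNB1 and EPHA7 with EPHB2, pairs whose intervals overlapped.

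Over the 8 anchors, 3 were higher and 5 lower in the knockout, and 6 lay within 1.5-fold where EFNB2 and EPHB2 did not. The median log2 fold was -0.19, against 0.05 over all tested transcripts of at least 5 FPKM, most of which have isoforms. The anchors of EPHB2, EPHA7 and EPHB3 lay below 5 FPKM in both groups, so these sets are unlike. By locus sums 5 of the 8 were higher, against 56.1% of the 12467 loci of at least 1 FPKM. These 5 include EFNB2, whose rise chose the set, and the EPHB3 locus, whose sum is not a value of EPHB3. Intervals lay apart for 1 of the 8 anchors, against 1.27% of tested transcripts of at least 5 FPKM. That 1 is EFNB2, whose rise chose the set, so nothing is read from this count.

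The loci beside each gene were compared with it to see whether its surroundings moved with it. Around EFNB2 the 10 nearest loci of at least 1 FPKM on each side, over 11.1 Mb of chromosome 13, had a median log2 fold of 0.21. Of the 20, 15 were higher in the knockout, where 56.1% of all loci of at least 1 FPKM and above 0 in both groups were higher. The count was also 15 around EPHB3 and 14 around EPHA2. It ranged from 7 around EPHB4 to 13 around EFNB1 for the rest. A called transcript was held by 3 of the 20 loci around EFNB2, against 1.28% of the 12620 loci that reached 1 FPKM in either group. The region was known for its rises when EFNB2 was chosen, so these counts are a description. The nearest, at chr13:103451399-103528345 and chr13:107194021-107220512, had log2 folds of -0.90 and 0.76. Only the loci at chr13:107820883-108519083, with 0.292 against 2.60 FPKM, and chr13:110406184-110438915, with 3.26 against 30.7 FPKM, had a higher fold than EFNB2. The other 18 loci lay below EFNB2.

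Like EFNB2, the other genes lay within the range of their neighbours. Median log2 folds of the 20 loci were 0.08 around EFNB1, 0.00 around EFNB3, -0.16 around EPHB4, -0.12 around EPHB2, 0.23 around EPHB3, 0.26 around EPHA2 and -0.06 around EPHA7. EFNB3 had a lower fold than 18 of its 20 neighbours, and EFNB1 a lower fold than 15 of the 19 with a value above 0 in both groups. Around EFNB1 a locus at chrX:68725084-68752351 held a called transcript and stood at 8.61 FPKM in the wild type and 2.88 FPKM in the knockout. None of the loci beside the remaining 6 genes held a called transcript.

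**Figure D5:**
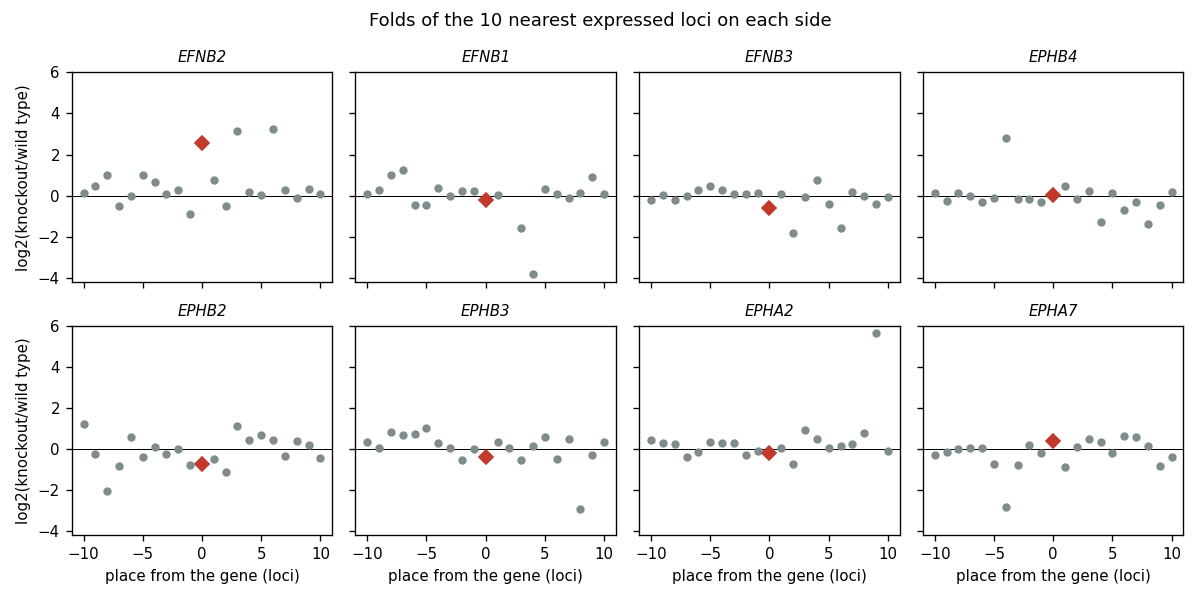
Log2 fold of knockout over wild type FPKM (y axis) of the 10 nearest loci of at least 1 FPKM on each side of each gene, by their place from the gene (x axis, in loci). Grey points are locus sums and the red diamond is the anchor of the gene. EFNB2 at 2.55 is passed by 2 of its 20 neighbours, and loci listed at 0 in a group are not drawn.

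Other ephrins and Eph receptors, and the signalling partners of the family, were not analysed here, because the deposited tables give transcripts without gene symbols.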

How the data were processed

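Libraries (3 wild type, 3 SETD2 knockout) were made from HEK293T RNA after removal of ribosomal RNA, per the labels' protocols, although 1 wild type RNA sample is listed with ChIP steps. Samples for ChIP (8) were left out. The submitters' processing notes name TopHat, Cuffdiff, Bowtie 1.1.2 and the build hg19, without role or order. The authors deposited FPKM per transcript and group, with bounds of unstated level, and a table of tests holding FPKM, the log2 ratio of both groups, a statistic (a score, not used), and the p-value with its q-value, per the file headers. The gene and transcript test tables were identical.

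The fold was computed as knockout over wild type without a pseudocount. Rows sharing a deposited locus were summed, leaving out loci with a failed estimate. Starts had 1 added, since the files count from 0. Calls are the authors' q under 0.05, and the p-values behind them reflect only how these libraries varied, which may be technical. The summing was tested on simulated data in which whole loci were raised by a set fold without noise. That checks the code only, not how far sums suit loci whose transcripts differ. The genes, lists and rules were chosen with earlier results of these data known. Named transcripts are each anchor, called rows, the largest share of a locus and rows of at least 5 FPKM; at the EPHB3 locus, where 56 rows reached 5 FPKM, only the anchor is named, and low rows named at EPHB4, EPHB2, EPHA2 and EPHA7 were picked after their values were seen. SETD2 itself was not analysed here. Python 3.11.15, pandas 2.3.3, numpy 2.4.6 and matplotlib 3.10.9 were used.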

Additional observations from a re-analysis of the deposited data

How the results depend on the processing

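Of 64 alternatives run, 59 left the result on the same side or within 1.5-fold. Many of the 64 could not have moved a result. The pseudocounts cannot reverse the sign of any gene, and EFNB1 and EFNB3, like EFNB2, have a single transcript at the locus. The count of 59 is therefore no measure of how firm the results are. The log2 fold of EFNB2 kept its sign under all 6 of its alternatives, with 2.39 at a pseudocount of 1 FPKM and 2.48 in the tracking table. Most of these alternatives could not have changed the sign. With 1 transcript at the locus, the anchor alone and rows of at least 1 FPKM give the main value. A pseudocount cannot reverse a sign. The fold also chose the set, so its kept sign adds no support. At a q threshold of 0.01 no member was called (0 against 1), because the lowest q in the authors' deposited table is 0.0220, and at an unadjusted p of 0.05 there were 14, of which 12 lay at the EPHB3 locus. With anchors alone, 3 genes were higher in the knockout against 5 by locus sums. Those 5 count the EPHB3 locus, whose sum is not a value of EPHB3. The EPHB2 log2 fold with the anchor alone was -0.70 against 0.07. In the wild type order 7 of the 8 genes changed rank with anchors alone, EPHB4 being the exception. The sums at EPHB3 and EPHB2 hold other transcripts that the anchors leave out: the wild type value went from 1900 to 1.31 FPKM at EPHB3 and from 7.43 to 3.62 FPKM at EPHB2. No paired analysis was possible because the files hold group values only, and for the same reason no replicate could be left out. The depth of the libraries is unknown, so low transcripts can be judged only by the authors' intervals.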
